A study of Mus musculus with 182 samples.

Results

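RNA was compared between 4 single oocytes of C57BL/6J (B6), the inbred laboratory mouse strain of the reference genome, and 3 single oocytes of Cast/EiJ (Cast), an inbred strain derived from wild mice of the subspecies Mus musculus castaneus. The 7 cells were all those of the wild-type count sheet whose column names mark them as B6 or Cast oocytes, out of 182 cells in the series. All 7 were labelled female and Xist wt/wt, so neither strain carried the Xist deletion that the series studies in embryos. The other cells were blastomeres of hybrid embryos between the strains, and of these only wild-type cells are used here: BC (B6 mother, Cast father) and CB (Cast mother, B6 father). Embryos came from natural matings and were not cultured. The labels give neither the age of the females nor the meiotic stage of the oocytes, and they name no animal, so oocytes of a strain may share a mother.

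A fully grown mouse oocyte makes little new RNA. It stores messenger RNA made during its growth, silences much of it by keeping its poly(A) tails short, and lengthens or removes tails as meiosis resumes, so that stored RNA directs the last meiotic divisions and the first embryonic cell cycle. Most of this maternal RNA is degraded by the end of the 2-cell stage, when the embryonic genome takes over. The libraries here were made by priming on poly(A) tails at the 3′ end of the RNA of 1 cell. RNA amount and poly(A) tail length therefore cannot be told apart in these values, and CPM values (counts scaled to a common library total) are shares of a library, not amounts per oocyte.

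The oocyte libraries held 2.78M to 3.75M gene counts in B6 and 2.54M to 4.23M in Cast, and 10139 to 11145 genes had at least 1 count in a cell. The Pearson correlation of log2(CPM + 1) over all genes was 0.948 to 0.966 within B6 (6 pairs of cells), 0.975 to 0.981 within Cast (3 pairs) and 0.883 to 0.915 between the strains (12 pairs), so every pair within a strain was closer than every pair across strains. B6 cells varied more among themselves than Cast cells. Over the 2662 genes whose strain means averaged 50 CPM or more, the median SD of log2 values between cells was 0.390 in B6 and 0.205 in Cast. B6 oocyte 4 stood apart for several oocyte genes, and B6 oocyte 21 had the lowest levels of many ribosomal protein genes in its strain; both are given beside the results they touch. Collection days and sequencing runs are not named in the labels, so strain and collection cannot be told apart.

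Because no animal is named, each strain counted as 1 sample and no p-value was computed. Genes are described by the log2 ratio of the strain mean CPM (B6 over Cast, 1 CPM added to each mean), which is positive where B6 was higher. Of 24499 genes, 6442 had strain means that averaged 5 CPM or more. A ratio past 4-fold, that is a log2 ratio of at least 2 or at most -2, was counted as a difference, and cells are called apart where the lowest cell of the higher strain lay above the highest cell of the lower strain. By this measure 759 genes (11.8%) were higher in B6 and 512 (7.95%) higher in Cast. The cells were apart for 710 (11%) and 506 (7.85%) of these. Cells were apart at any size of ratio for 3351 genes (52%). The median log2 ratio over all genes compared was -0.06, with quartiles of -0.91 and 0.96, and 3118 ratios (48.4%) were above 0. Counts of listed genes below are to be read against these percentages, and they carry no test.

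**Figure D1:**
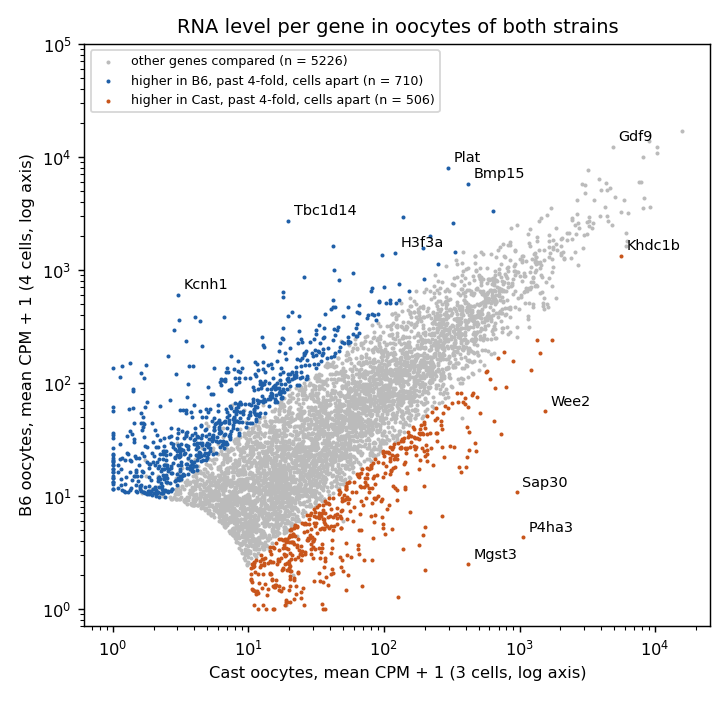
Mean CPM + 1 of each of the 6442 genes compared, in 3 Cast oocytes (x axis, log scale) and 4 B6 oocytes (y axis, log scale). Blue points are the 710 genes past 4-fold and apart with B6 higher, orange points the 506 with Cast higher, and grey points all others; Gdf9, within 4-fold, is grey, and Plat and Bmp15 are blue points of high level.

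All 7 cells carried the RNA of an oocyte. The 15 markers of oocytes, among them zona pellucida, growth factor and linker histone genes, together took 67772, 40732, 39165 and 36835 CPM in B6 oocytes 4, 18, 20 and 21, and 26633, 36704 and 27413 CPM in Cast oocytes 10, 11 and 12; per-cell values are given in this order throughout. None of these 15 markers was at 0 in all cells. Of 27 cumulus and granulosa markers, genes of the follicle cells that surround the oocyte, 12 were at 0 in every cell, among them Amh, Foxl2, Inha and Fst. Their summed level was 42.7 to 112 CPM in B6 and 41.7 to 90.6 CPM in Cast, overlapping ranges far below the oocyte markers. One of the 4 compared, Cyp19a1 (aromatase, the enzyme of estrogen synthesis), was higher in B6 at 13.2, 71.6, 28.5 and 60.3 CPM against 8.27, 9.82 and 8.27 CPM, a ratio short of 4-fold without B6 oocyte 18 or 21. Of 13 sperm and testis markers, 7 were at 0 in every cell, and the summed level (400.0 to 545 CPM in B6, 271 to 309 in Cast) was almost all Odf2, which encodes a centrosome protein also found in sperm tails.

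The largest ratios in favour of B6 belonged to genes with high levels in every B6 oocyte and almost none in Cast. Kcnh1, a voltage-gated potassium channel gene at chr1:192189144-192510159 (GRCm38, the assembly that mm10 names), was at 520.3, 563, 684 and 645 CPM in B6 and 1.58, 0.796 and 3.78 CPM in Cast. Its log2 ratio of 7.63 was the largest of the 759. Tbc1d14 (chr5:36490604-36586271), whose product regulates autophagy through a Rab GTPase pathway, combined a ratio of 7.11 with high abundance, at 2736, 2668, 2959 and 2546 CPM against 15.4, 22 and 18.9 CPM. For both genes the B6 cells lay close together and the strains were separated by more than 100-fold in CPM.

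The cytokine gene Il7 was at 244, 270.4, 327 and 319 CPM in B6 and 0.788, 1.33 and 3.31 CPM in Cast. Srgn, which encodes the granule proteoglycan serglycin, was at 355, 309, 344 and 401 CPM and 9.45, 0.265 and 0.473 CPM. Hsd17b13, a lipid droplet enzyme gene, had 1857 counts over the B6 cells and 2 over the Cast cells, a ratio of summed CPM of 741 with a 95% counting interval of 205 to 6119. Stom, the gene of the membrane protein stomatin, had 1506 and 1 counts, and the counting interval of its ratio started at 215. Ranked among genes whose symbols are not predicted ones such as Gm20356, the rest of the 12 largest ratios were Tmtc1, Dpys (dihydropyrimidinase, which breaks down pyrimidines), AA545190, Hist1h2bc (a histone H2B gene), Tm2d1 and Cmpk1 (a pyrimidine nucleotide kinase), with log2 ratios from 6.08 to 6.86. All 12 were chosen from genes whose cells were apart.

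The largest differences in CPM in favour of B6 were those of Plat, Bmp15, Lamb1, Tbc1d14, Pla2g4c and Ermp1. Plat (chr8:22757722-22782848), the tissue plasminogen activator gene, whose stored message in mouse oocytes is a textbook case of translation switched on by tail lengthening during maturation, was at 7490.0, 8943, 8436 and 7298 CPM in B6 and 304, 334 and 251 CPM in Cast, a log2 ratio of 4.76. Bmp15 (chrX:6314054-6320724), an oocyte-secreted growth factor of the TGF-beta family, was at 12045, 4369.9, 3025 and 3760.2 CPM and 429, 398 and 425 CPM, with B6 oocyte 4 well above the other B6 cells and all of them above Cast. Lamb1, a laminin chain gene, was at 2902, 3487, 2832 and 2628 CPM and 145, 130.1 and 137 CPM. Pla2g4c, a cytosolic phospholipase gene, and Ermp1, an endoplasmic reticulum peptidase gene, had smaller log2 ratios, 2.37 for the former and close to 3 for the latter. At the far end, the predicted gene Gm20356 was at 165, 125, 129 and 122 CPM in B6 and had no count in any Cast oocyte, which against a floor of 3 counts over the strain is at least 475-fold higher in B6. In all, 27 of the genes past 4-fold in favour of B6 were at 0 in every Cast cell. Of those in favour of Cast, 6 were at 0 in every B6 cell. Reads were aligned to mm10, the B6 genome, and whether Cast reads were lost was not tested.

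In the other direction the largest ratio of all 6442 genes, in absolute size, belonged to P4ha3 (chr7:100285489-100319701), a subunit gene of the prolyl 4-hydroxylase that modifies collagen. It was at 2.15, 0.72, 9.03 and 1.33 CPM in B6 and 989, 1022 and 1193 CPM in Cast, a log2 ratio of -7.95. Mgst3 (chr1:167371966-167393841), a microsomal glutathione transferase gene, was at 2.46, 1.44, 1.17 and 0.8 CPM and 299.7, 456 and 495 CPM. Sap30, a subunit of the Sin3 histone deacetylase complex, was at 3.07, 25.2, 2.33 and 8.27 CPM and 1015, 1044 and 811 CPM, so it was among the abundant messages of Cast oocytes and scarce in each B6 oocyte.

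Pnpla3, a gene of a lipid droplet lipase, was at 2.46, 0.72, 1.17 and 0.533 CPM in B6 and 213, 183 and 204 CPM in Cast. Stk25, a protein kinase gene, had 3 counts over the B6 cells, all in oocyte 18, and 1342 over the Cast cells, a Cast-over-B6 ratio with a counting interval of 192 to 2723. The other genes of the 12 were Rrs1 (ribosome assembly), Tmsb4x (thymosin beta 4, which binds actin), Tceal8, Agtr1a (an angiotensin receptor), Agbl2 (a tubulin carboxypeptidase), Lgals3 (galectin-3) and Ptprc, with log2 ratios from -5.62 to -5.21. Ptprc encodes CD45, a marker of blood cells; it had no count in B6 and was at 52.4, 18.1 and 37.8 CPM in Cast, at least 151-fold higher. Of the 12 blood and immune markers, 10 were at 0 in every oocyte, including the globin genes, Csf1r and Cd74, and the other one, Cd68, was at 1.46 to 4.27 CPM in B6 and 0 to 3.54 CPM in Cast.

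The largest differences in CPM in favour of Cast were those of Khdc1b, Ctnnal1, Wee2, Tnfsf13b, D6Ertd527e and AA619741. Ctnnal1, which encodes a catenin-like protein, was at 261, 178, 239 and 267 CPM in B6 and 1562, 1978 and 1670.1 CPM in Cast. Tnfsf13b, the gene of the B-cell factor BAFF, was at 143, 127, 329 and 129.6 CPM and 1441, 1389.8 and 1432 CPM, with B6 oocyte 20 above the other 3 B6 cells. These 6 were chosen from genes past 4-fold whose cells were apart. Khdc1b belongs to a family of near-identical oocyte genes, so its counts may hold reads of its copies, and the same holds for the Oas1, Obox, Oog, Nlrp, Tcstv and ribosomal protein genes below.

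**Figure D2:**
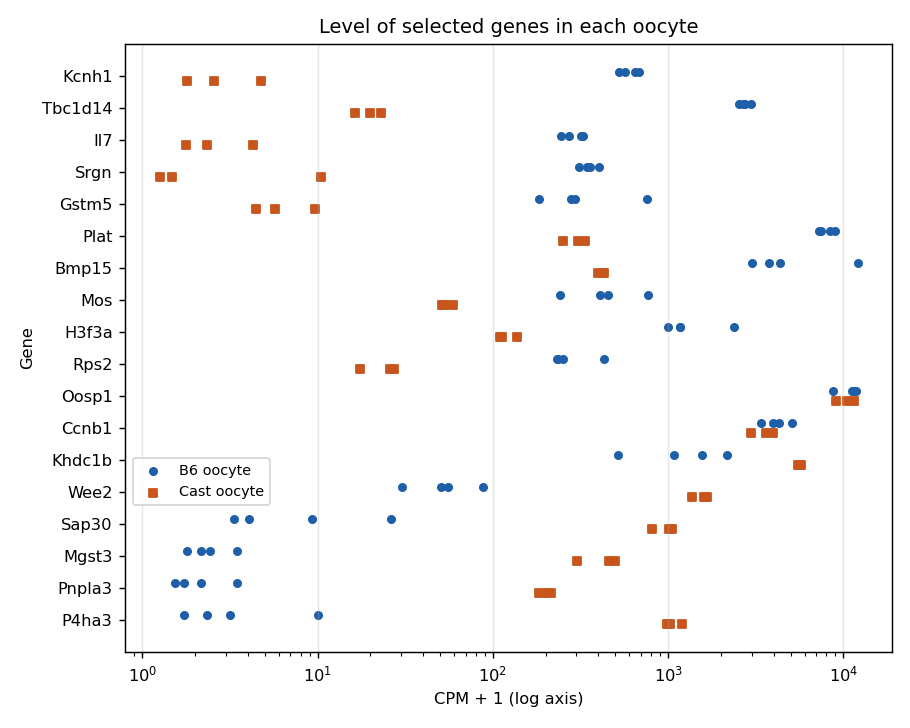
CPM + 1 (log axis) of 18 genes in each oocyte, blue circles for the 4 B6 cells and orange squares for the 3 Cast cells. Genes from Kcnh1 to Rps2 have every B6 cell above every Cast cell, Oosp1 and Ccnb1 overlap, and genes from Khdc1b to P4ha3 have every Cast cell above every B6 cell.

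Genes for oocyte growth factors and the zona pellucida, the glycoprotein coat of the egg, had more ratios above 0 than below, and their median depended on 1 cell. Of 15 genes, 13 were compared and 9 had a log2 ratio above 0. The median was 0.87 (0.15 without B6 oocyte 4 and 0.34 with the median over cells). Bmp15, Zp3 and Astl were past 4-fold in B6 (23.1%) and Nobox in Cast (7.69%), beside 11.8% and 7.95% of all genes. Zp3, one of the zona proteins, was at 600.2, 134, 203 and 220.3 CPM in B6 and 45.7, 39.8 and 45.8 CPM in Cast. Astl, the gene of ovastacin, the protease that alters the zona after fertilization, was at 1520.3, 599, 402 and 464 CPM and 128, 133 and 125 CPM, and without B6 oocyte 4 its ratio was under 4-fold. The call of Nobox was lost with 5 CPM added, with the median over cells, with each of the other scalings and without B6 oocyte 20, B6 oocyte 21 or Cast oocyte 12. This gene of a transcription factor of early follicle growth was at 10.8, 14, 2.62 and 6.93 CPM and 35.1, 32.4 and 47.3 CPM. Gdf9, the partner of Bmp15 and one of the most abundant messages of all 7 cells, was at 20668, 8022, 10594 and 9839 CPM and 4862, 5701 and 4018 CPM, with B6 cells all above Cast cells at a log2 ratio of 1.34. Oosp1, an oocyte-secreted protein gene, overlapped between strains at 8714 to 11814 CPM in B6 and 9058 to 11520.0 CPM in Cast.

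Regulators of meiosis included genes with large ratios in both directions. Wee2 (chr6:40435246-40466815), the oocyte kinase that holds CDK1 inactive and keeps the oocyte arrested before it matures, was at 87, 54.7, 29.4 and 49.6 CPM in B6 and 1369.5, 1669 and 1601 CPM in Cast, a log2 ratio of -4.78. Gpr3, the receptor that keeps cyclic AMP high during the same arrest, was lower in abundance and also higher in Cast, at 2.46, 1.44, 1.46 and 4.53 CPM and 37, 18.6 and 41.1 CPM. Mos, the kinase that drives MAP kinase signalling and the second arrest, at metaphase II, was at 451, 239.8, 764 and 405 CPM in B6 and 50, 58.1 and 51.7 CPM in Cast, a log2 ratio of 3.10. Thus for each of these 3 genes the strains did not overlap, and Mos lay in the direction opposite to Wee2 and Gpr3.

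Cdk1 and the phosphatase gene Cdc25b, which activates CDK1, were past 4-fold in B6 with overlapping cells, and Cdk1 fell short without B6 oocyte 18. Cdc25b was at 68, 8.28, 1.46 and 1.07 CPM in B6 and 0, 4.78 and 4.25 CPM in Cast, so its ratio rested on oocyte 4. Ccnb1, the cyclin partner of CDK1, was at 3373, 3982, 5082 and 4268 CPM and 2987, 3941 and 3608 CPM, and Pttg1 (securin) was at 7099.5, 5309.5, 6623 and 6538 CPM and 3635, 4631 and 3290.4 CPM with a log2 ratio of 0.73. Of 25 meiotic genes in the count sheet 17 were compared. Of these, 3 were past 4-fold in B6 (17.6%) and 2 in Cast (11.8%), beside 11.8% and 7.95% of all genes. The median of -0.11 changed sign under another scaling, to 0.21 with the deposited normalized signal. The list as a whole therefore leaned to neither strain, while individual members differed widely.

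The subcortical maternal complex is a protein assembly under the oocyte membrane that embryos need for their first divisions. It had 3 of 8 genes past 4-fold in B6 (37.5%, beside 11.8% of all genes), and these 3 rested on 1 cell. Nlrp5, its founding member, was at 2325, 185, 187 and 139.8 CPM in B6 and 90.2, 106 and 103 CPM in Cast. Ooep was at 417, 102, 82.1 and 36.8 CPM and 22.8, 28.1 and 27.2 CPM, and Tle6 at 755, 71.3, 102 and 107 CPM and 67.7, 61.1 and 57.7 CPM. Without B6 oocyte 4 none of the 3 stayed past 4-fold, although their B6 cells all lay above Cast. The complex also held the opposite pattern: Zbed3 was at 296, 2959.9, 1204 and 2017 CPM in B6 and 10297, 5367 and 2696 CPM in Cast, with overlap, and Padi6, chosen after its values were seen, had a mean of 79.1 CPM in B6 and 269.6 CPM in Cast. Among 12 Nlrp genes of reproduction, Nlrp14 was at 1546, 429, 369 and 437 CPM and 80, 74.6 and 85.5 CPM, and Nlrp9b was at 39.4, 38.9, 45.4 and 58.9 CPM and 220.2, 243 and 248 CPM in the opposite direction.

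In other multigene families that are active in oocytes, most members compared were within 4-fold. The 5 Obox homeobox genes compared all had ratios above 0 with none past 4-fold, and Obox2 was at 7033, 7649, 7822 and 7932 CPM in B6 and 3011, 3628 and 2896 CPM in Cast. Of 10 Oog and Pramel-like genes compared, 3 were past 4-fold in B6 (30%, beside 11.8% of all genes) and none in Cast, and 1 of the 3 stayed with 5 CPM added. Pramel5 was at 6.76, 40, 12.2 and 6.13 CPM in B6 and 3.54, 1.86 and 0.945 CPM in Cast, short of 4-fold without B6 oocyte 18, and Pramel6 was at 14.5, 11.9, 8.74 and 2.13 CPM and 0.788, 1.06 and 0.709 CPM. Oog2 was higher in B6 at 203, 176, 179 and 190.4 CPM against 37, 30.3 and 28.8 CPM, whereas the more abundant Oog3 was at 1267, 3231, 2412 and 3004 CPM and 5126, 4647 and 4760.4 CPM. The list of Omt2 and Khdc1 genes, with 8 compared, also held Oas1h, which is not of these families. Khdc1b was at 514, 2153, 1082 and 1563 CPM in B6 and 5664, 5759 and 5496 CPM in Cast. It was short of 4-fold without B6 oocyte 4 or 20 and with the deposited normalized signal. Oas1h was also higher in Cast, at 45.8, 13.3, 20.7 and 56.8 CPM against 206, 213 and 158 CPM. None of 12 genes of the oocyte Fbxw cluster was past 4-fold. Fbxw14, Omt2a and Omt2b were higher in oocyte 4 than in the other 3 B6 cells, which lay close together.

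Factors that store, read and destroy maternal messages were mixed. Of 27 genes compared, 2 were past 4-fold in B6 (7.41%) and 3 in Cast (11.1%), beside 11.8% and 7.95% of all genes, and the median was 0.05 (-0.20 without B6 oocyte 4). Pabpn1l, a poly(A)-binding protein gene used to remove maternal RNA, was at 31.4, 11.9, 40.2 and 18.7 CPM in B6 and 173, 263 and 234 CPM in Cast. Btg4, which recruits the CCR4-NOT deadenylase to maternal messages, was at 2339, 1524, 2532 and 2123 CPM and 5247, 6726 and 6286 CPM. Dcp2, the decapping enzyme gene, was at 34.7, 33.5, 41.9 and 58.1 CPM and 209, 162 and 216 CPM. All 3 were higher in every Cast oocyte than in any B6 oocyte, Btg4 at a log2 ratio of -1.51, short of 4-fold. The remaining called member in favour of Cast was Cnot3, at 1.44 to 5.87 CPM against 11.8 to 31.9 CPM. On the B6 side, Ythdf2, the reader of methylated adenosine that targets RNA for decay, was at 86.7, 36.7, 55.3 and 34.1 CPM and 14.6, 13.3 and 8.74 CPM, and Pabpc1l, the poly(A)-binding protein of oocytes, at 77.8, 8.64, 14.6 and 4.8 CPM and 1.97, 2.92 and 2.84 CPM; both fell short of 4-fold without B6 oocyte 4, as Cnot3 did. Cnot3 was also short of it with each of the other scalings, with the median over cells and without B6 oocyte 18 or Cast oocyte 12, and Ythdf2 without Cast oocyte 12. Cnot7, a catalytic subunit of the deadenylase, was close in both strains at 2544, 2574, 3014 and 3268 CPM and 2492, 2309 and 2452 CPM.

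Genes of cytosolic ribosomal proteins had the highest count of B6-higher members among the 30 lists. Of 53 genes 49 were compared, and 26 of these (53.1%, beside 11.8% of all genes) were past 4-fold in B6 and none in Cast, with a median log2 ratio of 2.09; 43 of 49 ratios were above 0. Their summed level was 3292, 3451, 2328 and 1437 CPM in the B6 cells and 1158, 1161 and 1106 CPM in the Cast cells. Thus the Cast cells were almost equal, while the B6 cells ranged from just above Cast in oocyte 21 to about 3 times Cast in oocytes 4 and 18. The count past 4-fold was 17 with 5 CPM added to each mean in place of 1, and from 23 to 32 when any 1 cell was left out.

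Single ribosomal protein genes differed in how the B6 cells were ordered. Rps2, of the small subunit, was at 432, 251, 235 and 231 CPM in B6 and 26.4, 25 and 16.5 CPM in Cast. Rpl6, of the large subunit, was at 51.4, 88.2, 48.6 and 4.8 CPM and 3.54, 4.78 and 3.31 CPM, so that oocyte 21 was almost at the level of Cast. Rpl3 was at 31.4, 60.1, 21.6 and 22.1 CPM and 1.18, 3.72 and 3.54 CPM. Rps12, also abundant, lay on the Cast side at 175, 99, 89.7 and 79.2 CPM and 182, 180.0 and 139.7 CPM, with overlapping cells, and Rpl10 overlapped at 102 to 181 CPM and 63.4 to 117 CPM. Ribosomal protein genes have many processed copies in the genome, and how reads that match several places were counted is not given in the sources used here. Genes of the mitochondrial ribosome, a family of symbols taken up after values were seen, did not share the pattern. Of 32 compared, 1 was past 4-fold in B6 (3.1%) and 3 in Cast (9.4%), beside 11.8% and 7.95% of all genes. Their median was -0.48. Among 26 translation initiation genes the only one past 4-fold was Eif3f, at 11.7, 22.7, 14 and 1.6 CPM in B6 and 2.36, 2.12 and 1.18 CPM in Cast, with overlap and short of 4-fold without B6 oocyte 18, and the median was -0.06 (0.02 with TMM, a scaling of library totals by trimmed means).

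**Figure D3:**
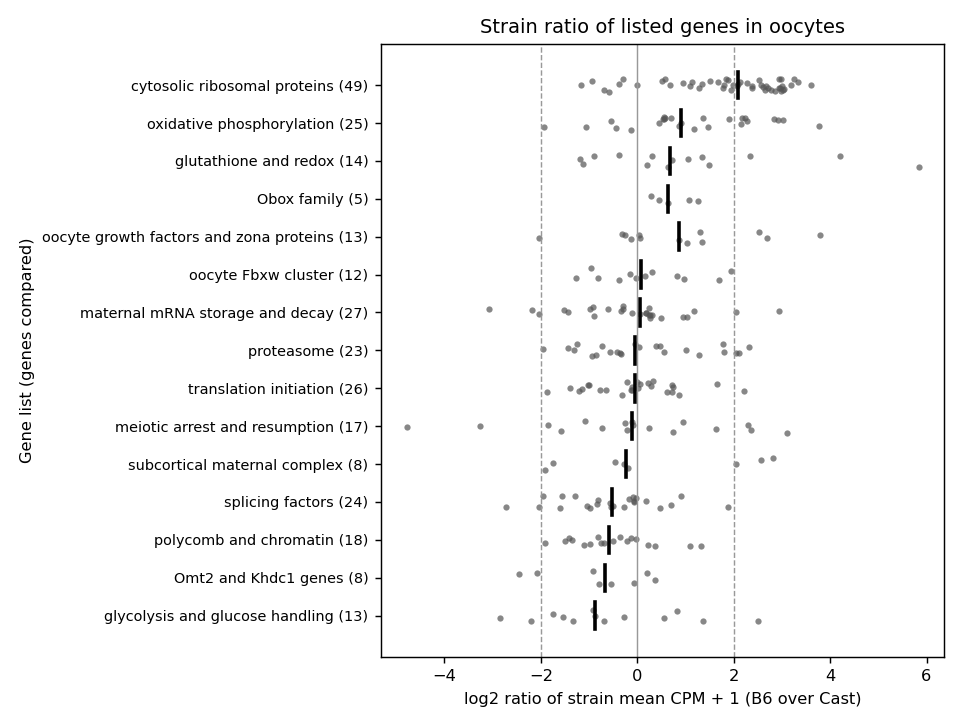
Log2 ratio of strain mean CPM + 1 (B6 over Cast, x axis) of each compared gene in 15 lists (y axis, number of genes in brackets); black bars are list medians, the solid line marks 0 and dashed lines 4-fold. Cytosolic ribosomal protein genes lie mostly right of 0 with a median of 2.09, and the glycolysis list has the lowest median shown, -0.88.

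Genes of oxidative phosphorylation had 20 of 25 ratios above 0. Of 37 genes 25 were compared, and the median was 0.91. Past 4-fold were 8 in B6 (32%, beside 11.8% of all genes) and none in Cast. Cells were apart for 6 of the 8, and 3 stayed past 4-fold with 5 CPM added to each mean. Cox7a2, of cytochrome c oxidase, was at 258, 73.4, 155 and 123 CPM in B6 and 15.4, 7.17 and 8.03 CPM in Cast, and Ndufa4 was at 106, 118, 78.4 and 87.5 CPM and 8.27, 13 and 12.1 CPM. The 3 members of highest level were split. Atp5b, the beta subunit of ATP synthase, was at 627, 534, 460.2 and 454 CPM and 675, 797 and 796 CPM, and Atp5a1, its alpha subunit, at 61.5, 66.2, 75.7 and 87.5 CPM and 308, 275 and 267 CPM, both higher in every Cast cell, whereas Sdha was higher in every B6 cell at 318, 311, 514 and 397 CPM against 156, 189.6 and 167 CPM. The summed level of the list was 3058, 1743, 2147 and 1818 CPM in B6 and 1869, 1806 and 1704 CPM in Cast, which overlapped.

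Of 14 genes of glutathione and redox defence, 3 were past 4-fold in B6 (21.4%, beside 11.8% of all genes) and none in Cast. Gstm5, a glutathione transferase gene, was at 757, 182, 279 and 293 CPM in B6 and 8.67, 3.45 and 4.73 CPM in Cast, a log2 ratio of 5.84. Txnrd1, cytosolic thioredoxin reductase, was at 234, 112, 191 and 79.2 CPM and 10.6, 5.04 and 6.38 CPM. The summed level of the 30 genes of this list was higher in each B6 oocyte (3202, 2519, 2879 and 2911 CPM) than in any Cast oocyte (1650.0, 1794 and 1688 CPM). Glycolysis and glucose genes had 1 of 13 past 4-fold in B6 (7.69%) and 2 in Cast (15.4%), beside 11.8% and 7.95% of all genes. Their median was -0.88. Pfkl, a phosphofructokinase gene, was at 1.54, 1.44, 3.79 and 9.34 CPM and 33.1, 31.1 and 40.9 CPM, and Pdhb, a subunit gene of pyruvate dehydrogenase, the enzyme that feeds pyruvate, the main fuel of the oocyte, into mitochondria, was at 107, 108, 103 and 119 CPM and 19.7, 15.7 and 20.1 CPM. Ldhb, a lactate dehydrogenase gene, was at 7102, 761, 1062 and 984 CPM and 770.0, 1131 and 983 CPM: oocyte 4 stood far above the others, which overlapped with Cast.

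Of 9 histone variant genes compared, 1 was past 4-fold in B6 (11.1%, beside 11.8% of all genes) and none in Cast. H3f3a, 1 of the genes for the replacement histone H3.3, was past 4-fold in B6 at 2359, 1164, 1166 and 997 CPM against 109, 137 and 112 CPM. H3f3b encodes the same protein and lay the other way, at 2596, 2965, 2570.3 and 2614 CPM and 4283, 4895 and 4307 CPM. H1foo, the linker histone of oocytes, overlapped at 8004 to 17420.4 CPM and 8325 to 13628 CPM. Dnmt3l, cofactor of the enzymes that methylate DNA in growing oocytes, was at 118, 31, 25.1 and 27.5 CPM and 3.94, 10.9 and 3.78 CPM. It was the only 1 of 10 DNA methylation genes past 4-fold (10%, beside 11.8% of all genes). None of 18 polycomb and chromatin genes was past 4-fold, and 14 of 18 had ratios below 0, with Suz12 at 97.5, 320.4, 276 and 319 CPM and 1185, 858 and 832 CPM. Of 24 splicing genes, U2af2 and Snrnp70 were past 4-fold in Cast (8.33%, beside 7.95% of all genes) and none in B6. The call of U2af2 was lost with 5 CPM added, with summed counts and with TMM. It was also lost without B6 oocyte 18, B6 oocyte 21 or Cast oocyte 10. Of 23 proteasome genes 3 were past 4-fold in B6 (13%, beside 11.8% of all genes) and none in Cast. These were Psma2, Psmb1 and Psmb4, all 3 short of 4-fold without B6 oocyte 4. All 3 were also short of it with the deposited normalized signal.

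In the piRNA pathway, which silences transposons in germ cells, Tdrd5 was at 27.4, 29.5, 22.7 and 25.1 CPM in B6 and 2.76, 3.45 and 0 CPM in Cast, and Tdrd6 was at 0.307, 2.52, 0 and 7.73 CPM and 20.9, 10.9 and 20.3 CPM; the other 10 genes compared were within 4-fold. Antiviral and MHC genes, in which mouse strains often differ, were scarce. Of 38 antiviral genes 4 were compared and none was past 4-fold. These 4 do not include Oas1h, past 4-fold in Cast and counted in another list above. Of 24 MHC and antigen presentation genes 5 were compared, with B2m (the light chain of MHC class I) higher in B6 at 33.8, 11.2, 9.03 and 33.6 CPM against 2.36, 2.39 and 3.31 CPM. 2-cell activation genes, which mark the start of embryonic transcription, had 3 of 19 compared. Tcstv1 was at 65.8, 46.8, 37.3 and 45.3 CPM and 0, 0.796 and 1.18 CPM, Tcstv3 was past 4-fold in the same direction, and Dux had no count in any oocyte. Of 11 imprinted genes compared, Igf2r, which is expressed from the maternal allele in most tissues, was past 4-fold in B6 at 62.7, 26.3, 67.9 and 52.5 CPM against 13.4, 5.31 and 5.67 CPM. Of 7 stress response genes compared, 2 were past 4-fold, Egr1 in B6 (2.62 to 24 CPM against 0.394 to 1.06 CPM) and Dusp1 in Cast (155 to 242 CPM against 646 to 864 CPM). Dusp1 fell short of 4-fold with TMM, with the deposited normalized signal and without B6 oocyte 4, B6 oocyte 21 or Cast oocyte 11. With 5 CPM added, Egr1, B2m, Tcstv3 and Tdrd6 fell short of it. Entpd4 and Wdfy1, for which C57BL/6J is known to carry its own allele or copy variant, overlapped between strains.

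Cells of 2-cell embryos (2C) carry RNA inherited from the oocyte, and here they came from other samples than the oocytes. Of these, 3 cells had a B6 mother (BC) and 3 a Cast mother (CB); 1 CB cell, number 6, has a strain label that goes against its title, which was followed. The BC cells were 2 females and 1 male, the CB cells 1 female and 2 males, and totals were 4.56M to 6.70M counts. Both crosses hold both genomes, so the mother is the difference together with the sex balance and the collection, which cannot be told apart from it. Over the 5519 genes compared the median log2 ratio (BC over CB) was 0.27, with 515 genes (9.33%) past 4-fold in BC and 47 (0.852%) in CB, and values below are to be read against this shift.

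Of the 710 genes higher and apart in B6 oocytes, 539 were compared at 2C, with a median of 0.42, and 120 (22.3%) were past 4-fold in the same direction beside 9.33% of all genes. Of the 506 genes higher and apart in Cast oocytes, 376 were compared, with a median of -0.09, and 11 (2.93%) were past 4-fold in the same direction beside 0.852%. Without CB cell 6 this median was -0.0133, and that of the B6 genes 0.51. In the opposite direction, 6 of the B6 genes (1.11%) were past 4-fold, beside 0.852% of all genes. Of the Cast genes, 15 (3.99%) were past 4-fold in the opposite direction, beside 9.33% of all genes. The 120 and 11 genes made up 23.3% and 23.4% of all genes past 4-fold at 2C in the direction concerned. Genes past 16-fold in oocytes, a class added after the data were seen, lay farther from the median of all genes. Of 102 such genes in B6, 71 were compared at 2C with a median of 1.43, 81.7% of them above 0, and of 60 in Cast, 39 were compared with a median of -0.45.

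Kcnh1 was among the genes that kept the direction, at 44.2, 7.11 and 108 CPM in BC cells 9, 10 and 11 and 0.149, 0.657 and 0.352 CPM in CB cells 2, 4 and 6. Srgn was at 118, 85 and 233 CPM and 6.42, 0.219 and 0.176 CPM, and Ermp1 at 1008, 906 and 1581 CPM and 9.1, 17.3 and 72.6 CPM. The strongest Cast gene, P4ha3, was at 0.6, 1.07 and 0 CPM in BC and 223, 47.3 and 114 CPM in CB. For these 4 genes every cell with a mother of the higher strain lay above every cell with a mother of the other. Of the 12 genes of largest ratio in B6 oocytes, predicted symbols left out, 11 had a 2C ratio above 0 and 8 were past 4-fold in the same direction. Of the 12 in Cast, 10 had a ratio below 0 and 4 were past 4-fold. Over all genes at 2C, 60.1% of ratios were above 0 and 39.9% below.

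Other genes did not keep it. Wee2 was at 3, 14.4 and 122 CPM in BC and 39.6, 6.14 and 45.5 CPM in CB, overlapping. Plat and Mos were low in both crosses, Plat at 36.6, 6.22 and 18.1 CPM and 9.4, 8.11 and 27.7 CPM. Hist1h2bc, higher in B6 oocytes, had no count in the 3 BC cells and was at 61.3, 33.3 and 44.4 CPM in the CB cells. Khdc1b, higher in Cast oocytes, was at 402, 359 and 571 CPM in BC and 273, 153 and 81.9 CPM in CB, the opposite order. The ribosomal protein genes also lay in the opposite direction: 47 of the 49 had 2C ratios at or below 0, with a median of -0.73 beside 0.27 over all genes. H3f3a was at 868, 753 and 599 CPM in BC and 1335, 1176 and 1047 CPM in CB. After 2C the classes did not keep 1 order. At the 4-cell stage the median was 0.08 for B6-higher genes, -0.10 for Cast-higher genes and 0.08 for all, and at the 8-cell stage the Cast-higher genes were at 0.53, above all genes at 0.12 and thus on the other side of them than at 2C.

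**Figure D4:**
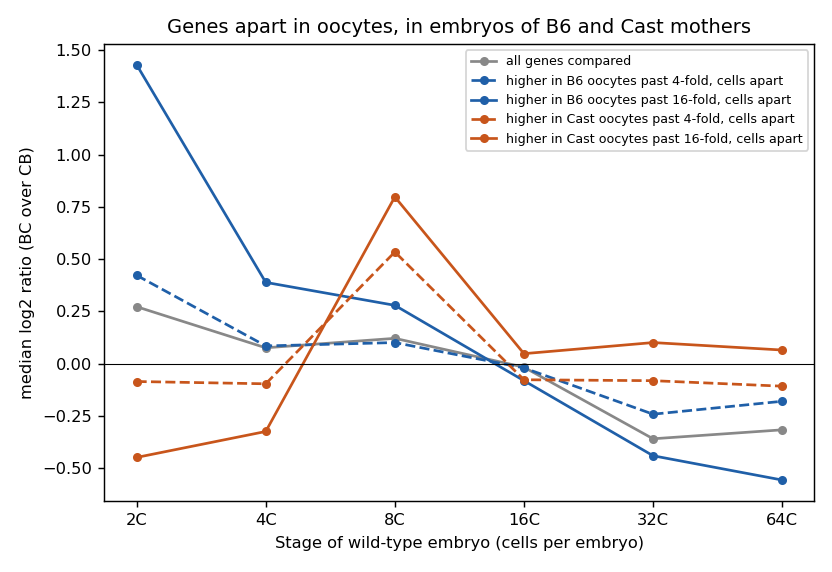
Median log2 ratio between wild-type BC and CB cells (y axis) at each stage (x axis) for all genes compared in oocytes (grey) and for genes past 4-fold (dashed) or 16-fold (solid) and apart in oocytes, B6-higher in blue and Cast-higher in orange. Genes past 16-fold are farthest from all genes at 2C, with medians of 1.43 and -0.45; the number of cells per stage and cross runs from 3 to 24.

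In later hybrid embryos both alleles of a gene share a nucleus, and the deposited allelic ratio gives the share of reads from each. Over wild-type cells of the 16-, 32- and 64-cell stages, with both crosses averaged so that each strain serves once as mother, 4475 of the compared genes had a B6 share, with a mean of 0.515, a median of 0.511 and 56.1% above 0.5. A share of at least 0.8 was seen for 2.12% of them and of at most 0.2 for 1.59%. The reads behind a share are unknown, and reads were aligned to mm10, the B6 genome. Whether Cast reads were lost in alignment was not tested. These shares describe alleles in embryos, not in the oocyte.

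Genes higher in B6 oocytes had a median B6 share of 0.527 (400 genes, 60.3% above 0.5), with 22 (5.5%) at 0.8 or above and 4 (1%) at 0.2 or below. Genes higher in Cast oocytes had a median of 0.493 (316 genes, 46.8% above 0.5), with 4 (1.27%) at 0.8 or above and 10 (3.16%) at 0.2 or below. Most genes that differed between oocytes thus had shares near 0.5. The medians of the genes past 16-fold were 0.587 (43 genes, B6) and 0.433 (31 genes, Cast), farther apart than those of the larger classes.

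Some of the leading genes had shares far from 0.5 on the side of the strain that was higher in oocytes. P4ha3 had a B6 share of 0.14, Mgst3 of 0.17, Pnpla3 of 0.08 and 2310022B05Rik of 0.10, all Cast-higher in oocytes. Zp3 had a share of 0.96 and Txnrd1 of 0.76, both B6-higher. Others, chosen for their shares after these were seen, were the copper transporter homologue Slc31a2 with 1 and Prex2 with 0.997 on the B6 side, and Crym with 0.00092 and Pabpc4 (a poly(A)-binding protein gene) with 0.0056 on the Cast side. Slc31a2 was at 269.7, 143, 206 and 167 CPM in B6 oocytes and 43.7, 23.9 and 35.9 CPM in Cast oocytes, so Cast oocytes did have counts of it. Shares also ran against the oocyte difference, as for Zfp97 (0.11) and Aldh5a1 (0.17), both B6-higher, and Drc1 (0.86) and Anxa2 (0.81), both Cast-higher. The 2 crosses differed for Aldh5a1 (0.33 in BC, 0 in CB) and Drc1 (0.73 in BC, 0.999 in CB). They were closer for Zfp97 (0.14 in BC, 0.08 in CB) and Anxa2 (0.79 in BC, 0.83 in CB). Other leading genes had balanced alleles in the embryo: Tbc1d14 was at 0.41, Cmpk1 at 0.49, Rrs1 at 0.55 and Lgals3 at 0.52. Among ribosomal protein genes the median share was 0.51 over 35 genes, with Rpl37 at 0.97 and Rps3 at 0.92 as exceptions named after their values were seen.

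**Figure D5:**
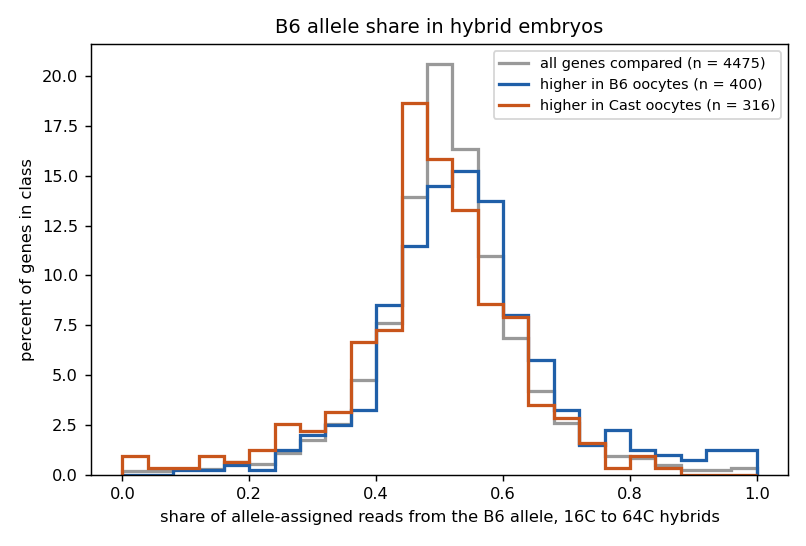
Percent of genes (y axis) by share of allele-assigned reads from the B6 allele (x axis, 0 to 1 in 25 bins) in wild-type 16- to 64-cell hybrids, for all genes compared (grey, n = 4475) and for genes past 4-fold and apart in oocytes, B6-higher (blue, n = 400) and Cast-higher (orange, n = 316). All 3 distributions centre near 0.5, with medians of 0.511, 0.527 and 0.493.

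The allelic ratio of the oocytes themselves served as a check of allele calling, since each oocyte holds alleles of 1 strain. Read as the share of the other strain's allele, its mean over 2669 to 3436 genes with at least 10 counts was 0.0218, 0.0241, 0.0141 and 0.00730 in B6 oocytes 4, 18, 20 and 21. In Cast oocytes 10, 11 and 12 the mean was 0.00622, 0.00656 and 0.00548. The median was 0 in every cell, so each oocyte matched its labelled strain, and the share assigned to the other strain was higher in each B6 cell than in any Cast cell. It was above 0.5 for 0 to 14 genes in a cell.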

How the data were processed

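Per the labels' protocols, cDNA of the poly(A)-tailed RNA of 7 single oocytes was primed at its 3′ end and amplified, and libraries were read from 1 end for 50 bases. The submitters' processing notes name TopHat2 2.1.0, SAMtools, HTSeq 0.6.1 and the build mm10, without settings; the handling of strand and of reads with several matches is not given in the sources used here. Raw counts of reads in 24499 genes were deposited by the authors. The authors also deposited an RPRT signal for 20711 genes, an abbreviation the file headers do not spell out, used as an alternative scaling. The deposited allelic fraction (15253 genes) was read as the share of the paternal allele in embryos and of the other strain's allele in oocytes.

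Counts were divided by the cell's total to give CPM, averaged over the cells of a strain with equal weight, and compared as log2 ratios with a pseudocount of 1 for genes whose strain means averaged 5 CPM or more (Python 3.11.15, pandas 2.3.3, numpy 2.4.6, scipy 1.17.1). The labels name no animal, so each strain is 1 sample: no p-value, SE or count model was computed. Depth was 2.54M to 4.23M counts per oocyte, so 1 count is 0.236 to 0.394 CPM; there are no molecular identifiers, so intervals (95%, exact for Poisson counts) and the floor of 3 counts per strain cover counting error only. No 2 oocytes agreed within counting noise. Hybrid shares used cells with at least 10 counts of the gene and at least 3 cells per cross, and only females for X-linked genes.

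Genes are named by a rule. In each direction, among genes past 4-fold with cells apart, it takes the 12 of largest ratio and the 6 of largest CPM difference without predicted symbols (Gm and Rik names, for example), and 3 with them; of each list it takes members past 4-fold and the 3 of highest level, and of each contaminant list the 4 of highest level. Members, lists and the rule were chosen with earlier results of these data known. Coordinates are those of RefSeq genes on GRCm38.p6, matched by symbol for 6216 of the 6442 genes. Alternatives were TMM (edgeR 4.0.16) and DESeq2 1.42.0 size factors in R 4.3.3, the RPRT signal, pseudocounts of 0.1 and 5, filters of 1 and 50 CPM and none, summed or median cells, and each cell left out. The script was tested on simulated data. Cells with the Xist deletion were not used here.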

Additional observations from a re-analysis of the deposited data

Results flagged for a closer look

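For 204 named genes or sums, the 4 B6 oocytes were examined for a cell far from the rest, by a criterion that chance meets in about 1 of 20 groups, and 15 were met; the 3 Cast cells were too few to examine. In B6 oocyte 4 the level was Nlrp5 2325 CPM (139.8 to 187 in the other B6 cells), Nlrp14 1546 CPM (369 to 437), Ldhb 7102 CPM (761 to 1062), Cox6a1 294.9 CPM (22.4 to 33.5), Dnmt3l 118 CPM (25.1 to 31), Fbxw14 3911 CPM (2261 to 2378), Omt2a 8247 CPM (3774 to 4197), Omt2b 8094 CPM (3940.1 to 4232), Rps2 432 CPM (231 to 251), Rpl32 200.2 CPM (107 to 114) and, on the low side, Suz12 97.5 CPM (276 to 320.4). Most of the 15 were thus of this cell. In B6 oocyte 18, H3f3b was at 2965 CPM (2570.3 to 2614) and Stk25 at 1.08 CPM (0 in the others). In B6 oocyte 20, Tnfsf13b was at 329 CPM (127 to 143), and in B6 oocyte 21, Rps29 was at 7.20 CPM (37.3 to 45.4), next to the 4.25 to 6.37 CPM of Cast. The origin of these differences was not tested.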

How the results depend on the processing

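The counts of 759 B6-higher and 512 Cast-higher genes (710 and 506 with cells apart) depended most on how low values were treated. With a pseudocount of 5 they were 447 and 289 (437 and 285 apart), and with a filter of 50 CPM, which leaves 2662 genes, 229 and 166 (226 and 165 apart). Leaving out any 1 cell gave 684 to 829 and 485 to 569 (659 to 794 and 480 to 564 apart). With the other scalings, filters and ways of averaging these counts stayed within 1.5 times, and the RPRT signal moved the median log2 ratio of all genes by 0.14. The genes counted changed more than their number. With the RPRT signal 929 were B6-higher and 502 Cast-higher, and these held 623 of the 759 and 354 of the 512. None of the 119 named genes past 4-fold changed direction under any alternative run. Named genes within 4-fold were not examined for a change of direction. Without B6 oocyte 4, 16 of the 119 named genes past 4-fold fell short of it. Without the 2-cell cell of conflicting labels the 2C median of Cast-higher genes was -0.0133 in place of -0.09, and with 4-cell females in place of 2C cells that of B6-higher genes was -0.00399 in place of 0.42; the cause was not tested. Median hybrid shares stayed on the same side of 0.5 with at least 30 counts per cell; with 64-cell embryos alone that of Cast-higher genes was 0.501, across 0.5. No paired analysis was possible because the B6 and Cast oocytes share no replicate number and no test was made. At the depth of these cells 5 CPM is about 13 counts a cell or more. Genes whose strain means averaged less were not compared in the main run, and a count of 0 does not establish absence.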

Other observations

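Families taken up by symbol after the values were seen gave further counts. Of 30 F-box genes named Fbxo or Fbxl, 6 (20%) were past 4-fold in B6 and 1 (3.33%) in Cast, and of 73 Tmem genes 12 (16.4%) and 2 (2.74%). Of 124 zinc finger genes named Zfp, 16 (12.9%) were past 4-fold in B6 and 10 (8.06%) in Cast, close to the 11.8% and 7.95% of all genes. Of 73 genes with Rps or Rpl symbols, which adds those outside the fixed list, 38 (52.1%) were past 4-fold in B6 and none in Cast. Over the chromosomes, chromosome 13 had 44 of 258 genes past 4-fold in B6 and 15 in Cast. Chromosome 19 had 20 and 24 of 209, with 37.8% of ratios above 0 beside 48.4% of all genes. These counts are to be read against the 11.8% and 7.95% of all genes. The other chromosomes are not described here. The median gene length was 27.5 kb for genes higher and apart in B6, 25.4 kb for those in Cast and 29.3 kb for all genes compared.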
